A study of Mus musculus with 23 samples.

Results

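The comparison described here asked whether repopulation after depletion changed subdural CNS-associated macrophages (sdCAMs) in another way than microglia (MG) of the same brains. It is the difference between 2 effects, the effect of BLZ945 in tdT- sdCAMs minus the effect of BLZ945 in MG, and is called the interaction. It used 20 of the 23 libraries of the series, 5 in each of the groups MG CTL, MG BLZ945, tdT- CTL and tdT- BLZ945. The genes were all those that passed a filter on low counts, 12697 of 33280. The other 3 libraries, tdT+ sdCAMs after BLZ945, were not used.

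All animals were Ccr2creERT2/+ R26tdT/tdT mice given tamoxifen (2 mg per day). In this inducible line, cells that express Ccr2 while tamoxifen acts, and their descendants, carry the fluorescent protein tdT. BLZ945, which blocks the CSF-1 receptor, was given by gavage at 200 mg/kg for 7 days, and CTL animals received vehicle. Every animal had a thrombin stroke in the middle cerebral artery 8 weeks later and was analyzed 1 day after it, so an effect here is a difference between 2 groups of stroke animals. MG were sorted as CD206- cells with intermediate CD45 and sdCAMs as CD206int-high cells, from brains without choroid plexus. By the paper's methods both gates took CD11b+ cells that were negative for Ly6C, Ly6G and CD11c. A macrophage of Ccr2 origin would be sorted as tdT- if recombination failed or if its precursors expressed Ccr2 only at other times. Such cells cannot be told apart. Each animal or pool gave 1 MG and 1 sdCAM library, and the replicates are named F1, F2, F3, M1 and M2 in this order in all lists of values. The CTL replicates came from 1 animal each and 4 of the 5 BLZ945 replicates from 2 pooled animals, F2 being the exception, so pooling and treatment cannot be told apart outside F2. The library names of BLZ945 F2 and M1 share an animal number.

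MG live in the brain parenchyma, and sdCAMs lie along vessels and in the leptomeninges. Both depend on signaling through the CSF-1 receptor, and their niches refill once an inhibitor is withdrawn. Type I interferon induces a shared set of antiviral genes in macrophages, and MHC class II molecules, which present peptides to CD4 T cells, are abundant on part of the border macrophages and scarce on resting MG.

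The libraries held 9433960 to 13276081 counts, and 3 counts, taken as the floor of detection, equaled 0.23 to 0.338 CPM (counts scaled to library size, with TMM factors). The floor covers counting error only, since amplified reads without molecular identifiers are not independent molecules. The labels were checked with marker lists. The mean log2(CPM + 1) of 20 sdCAM identity genes was 9.77 to 9.996 in tdT- CTL and 9.60 to 10.02 in tdT- BLZ945, against 2.28 to 2.86 in MG CTL and 1.93 to 2.35 in MG BLZ945. The mean of the 15 homeostatic microglia genes was 10.38 to 11.03 in MG CTL and 10.64 to 11.06 in MG BLZ945. In sdCAMs it was 6.67 to 7.68 in CTL and 6.83 to 7.30 in BLZ945. The part of MG transcripts in the sdCAM values was not tested. Markers of other cells were high in some libraries. The tdT- BLZ945 library F1 had 4.16 for the 9 genes of the monocyte list, where the other 4 had 1.05 to 1.89, tdT- CTL had 1.14 to 1.62 and MG had 0.876 to 1.35 in CTL and 0.776 to 1.47 in BLZ945. None of the 9 was at 0 in all libraries. F1 also had 123 CPM of Ccr2, and it was highest for the dendritic cell list, with 3.47 against 1.44 to 1.96 in the other 4 and 1.88 to 2.35 in tdT- CTL, and for the T and NK cell list, with 0.874 against 0 to 0.0791. The tdT- BLZ945 library F2 had 167 CPM of the hemoglobin gene Hba-a1. The MG BLZ945 library F3 had 3.75 for the choroid epithelium list, where the other 4 had 0.0448 to 0.743, MG CTL had 0.0486 to 0.548 and sdCAMs had 0.316 to 1.62 in CTL and 0.0571 to 1.97 in BLZ945. Its level of Ttr, the transthyretin made by that epithelium, was 538 CPM. Without this MG library the interaction had 5 genes with an adjusted p under 0.05, 12 interferon-stimulated members lower and 4 class II members higher at an unadjusted p under 0.05. In summed CPM the dendritic cell list was lower after BLZ945, with 222 to 787 in tdT- CTL and 31.75 to 212 in tdT- BLZ945, mostly from the lectin gene Cd209a. In bulk samples fewer cells with a transcript and less of it per cell cannot be told apart.

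In edgeR few single genes passed the test of a different repopulation effect, and in DESeq2 more did. Of the 12697 genes, 5 (0.0394%) had an adjusted p under 0.05 in edgeR's quasi-likelihood test with Benjamini-Hochberg adjustment, and in all of them the sdCAM effect was the lower one. DESeq2, which tested 17911 genes, called 100, among them the same 5, with a higher sdCAM effect in 30 and a lower one in 70. At an unadjusted p under 0.05 there were 1104 genes (8.69%), with a higher sdCAM effect in 481 (3.79%) and a lower one in 623 (4.91%). With the animal or pool as a block, 1 gene passed, H2-Aa, and it is not among the 5. The count was 36 without tdT- BLZ945 F1, the library with monocyte transcripts, and was 0 without MG CTL F2 or M1. Each of the 5 genes had a group in which all 5 libraries were at or under 3 counts, as had 591 of the 12697. Fitted fold changes of such genes are no bounds, so their levels are given. Fewer genes were detected in every tdT- BLZ945 library (12733 to 14460) than in any tdT- CTL library (14633 to 15590). The MG groups overlapped, with 14540 to 14887 in CTL and 13779 to 16207 in BLZ945. The part of this difference in the calls was not tested.

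Gimap9, a GTPase of the immunity-associated family, had 29.9, 29.0, 14.01, 23.8 and 23.3 CPM in MG CTL and 8.73, 7.14, 5.74, 13.02 and 7.22 CPM in MG BLZ945. In tdT- CTL it had 4.51, 11.99, 7.09, 4.38 and 5.16 CPM, and in tdT- BLZ945 it had 0, 0, 0, 0 and 0.225 CPM. The BLZ945 libraries lay below the CTL libraries without overlap in both cell types, and in sdCAMs they were at the floor (interaction adjusted p = 0.0192). Zfp493, a zinc finger gene, had 0.545 to 11.3 CPM in tdT- CTL and 0 to 0.113 CPM in tdT- BLZ945, with 1.08 to 8.42 and 3.696 to 8.48 CPM in the MG groups (adjusted p = 0.0322). Ano7, a member of the anoctamin family of membrane proteins, had 0.311 to 2.81 CPM in tdT- CTL and 0 in all tdT- BLZ945 libraries, with 2.84 to 6.96 and 2.23 to 10.8 CPM in MG (adjusted p = 0.0405). The predicted gene Gm9958 had 0.2995 to 7.295 CPM in tdT- CTL and 0 in tdT- BLZ945, with 0.514 to 5.097 and 1.26 to 2.51 CPM in MG (adjusted p = 0.0456). In all 4 genes the sdCAM groups did not overlap, with BLZ945 lower, as was true of 1.22% of all genes (1.86% in either direction), and in Zfp493, Ano7 and Gm9958 the MG groups did.

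The fifth gene, the metalloprotease Adam33, was the only one of the 5 that also had opposite effects in the 2 cell types at an unadjusted p under 0.05 each. tdT- CTL had 60.3, 76.1, 66.5, 107 and 42.7 CPM and tdT- BLZ945 33.6, 23.2, 45.3, 33.7 and 19.5 CPM, and the groups overlapped through CTL M2 and BLZ945 F3. MG were at the floor in CTL, with 0, 0, 0, 0.0857 and 0 CPM, and had 0, 0.672, 0.257, 0.892 and 0.425 CPM in BLZ945. The MG side of its interaction (adjusted p = 0.0456) rests on a few reads per library.

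Over all genes the effects in the 2 cell types were nearly uncorrelated, with r = 0.0878 across 12697 genes, which share libraries and are not replicates. Effects of opposite sign, with no test, were seen in 51.7% of genes. Each effect alone was called for 8 genes (0.0630%) in MG and 61 (0.480%) in sdCAMs. In models of each cell type alone the counts were 46 in MG and 0 in sdCAMs, where 572 genes had an unadjusted p under 0.05. In the 20-library data DESeq2 called 372 genes in sdCAMs and limma voom 2.

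**Figure D1:**
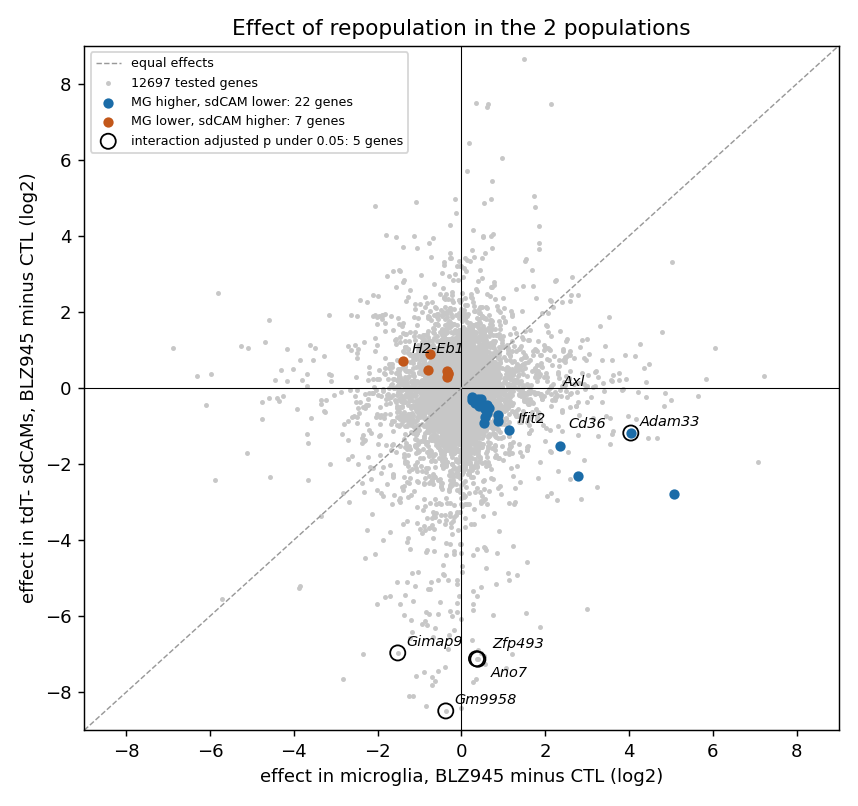
Effect of BLZ945 in MG (x axis, log2) against the effect in tdT- sdCAMs (y axis, log2) for the 12697 genes tested, with equal effects on the dashed line. Blue and orange points are the 22 and 7 genes with opposite effects, and circles mark the 5 genes that passed the interaction test, of which 4 lie at the lower end of the sdCAM axis.

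Opposite effects were counted where both effects had an unadjusted p under 0.05 and opposite signs. There were 29 such genes (0.228%) among 79 (0.622%) in which both effects had that p, and the other 50 had effects of the same sign. In 22 genes (0.173%) MG were higher and sdCAMs lower after repopulation, and in 7 (0.0551%) MG were lower and sdCAMs higher. With RLE scaling the split was 14 and 9. All 29 kept opposite signs in every alternative that tested them, but not their p. Limma voom counted 54 genes, of which 7 were among the 29. The count was 15 without both libraries of CTL M1, 17 without MG BLZ945 M2, 18 without MG BLZ945 M1 or tdT- CTL F1, and 46 without both libraries of BLZ945 F2. In edgeR Adam33 alone of the 29 passed the adjusted test of the interaction, and in DESeq2 16 did, Hlx, Mtmr1, Med21 and H2-Eb1 among them. The edgeR fit without tdT- BLZ945 M2 called 3, with H2-Eb1 and Med21.

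**Figure D2:**
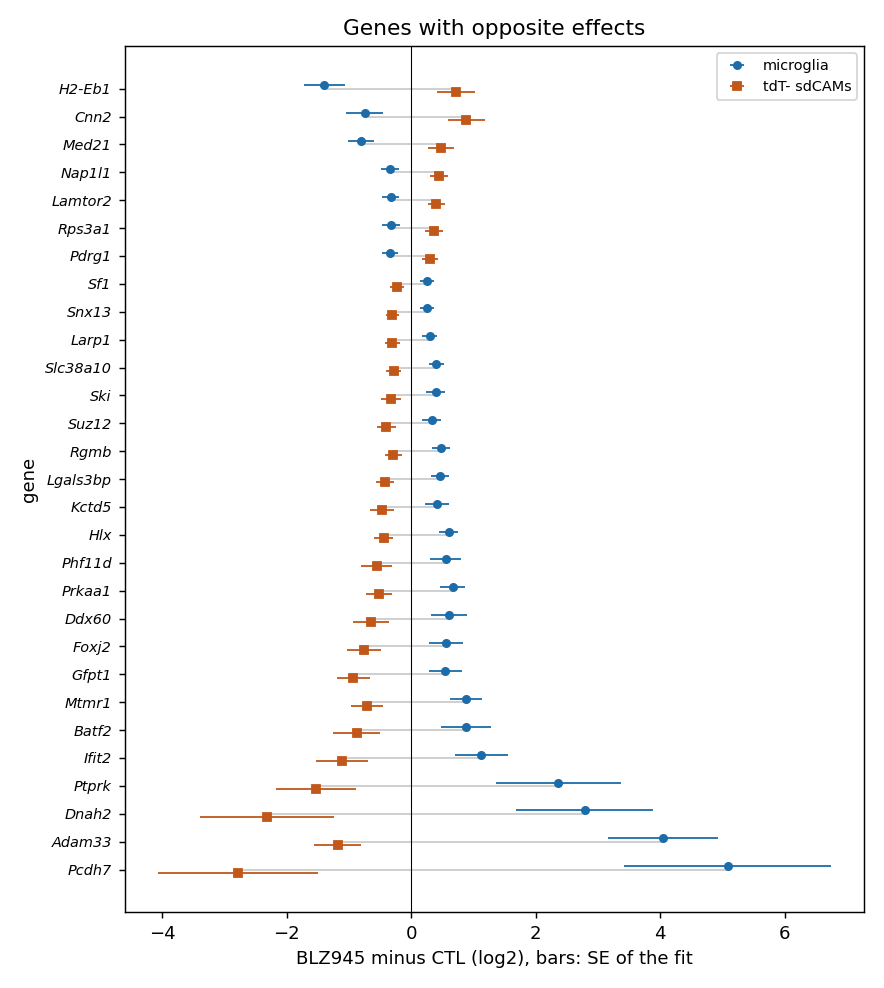
Fitted effect of BLZ945 (x axis, log2) with its SE in MG (blue circles) and tdT- sdCAMs (orange squares) for the 29 genes with opposite effects, ordered by the interaction. MG lie right of 0 and sdCAMs left of it in 22 genes and the reverse holds in 7, and the wide bars of Ptprk, Dnah2, Adam33 and Pcdh7 belong to genes at or near the floor in MG.

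Of the 22 genes higher in MG and lower in sdCAMs, Ifit2, an RNA-binding antiviral protein that interferon induces, had the largest interaction after the genes at or near the floor in MG. It had 34.8, 42.5, 75.5, 29.6 and 29.9 CPM in MG CTL and 107, 27.1, 87.1, 146 and 97.8 CPM in MG BLZ945. The sdCAM values were 135, 76.5, 49.8, 149.5 and 49.9 CPM in CTL and 50.4, 23.9, 74.8, 44.8 and 20.04 CPM in BLZ945. All MG BLZ945 libraries but F2 were above the MG CTL libraries, and the sdCAM groups overlapped. The order of the cell types turned, with 92.2 ± 47.4 in sdCAMs over 42.5 ± 19.2 CPM in MG in CTL and 42.8 ± 22.1 under 92.9 ± 42.95 CPM in BLZ945 (SD, n = 5). The effects were 1.13 (SE 0.42) in MG and -1.11 (SE 0.42) in sdCAMs on the log2 scale, and the interaction of -2.24 (SE 0.60) had an unadjusted p of 0.00116 and an adjusted p of 0.214 in edgeR.

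Lgals3bp, a secreted glycoprotein that binds galectins, had 257.7, 277, 328, 353 and 197 CPM in MG CTL and 394, 340.1, 351, 452 and 404 CPM in MG BLZ945. sdCAMs had 548, 474, 411, 532 and 416 CPM in CTL and 311, 395, 296, 411 and 373 CPM in BLZ945. The groups overlapped in both cell types, but the sdCAM-minus-MG differences within animals did not overlap between treatments, as in 2.80% of all genes (1.53% with the lower values in BLZ945, as here). The interaction was -0.87 (SE 0.21), with an adjusted p of 0.127. Ddx60, a helicase of antiviral defense, had 6.75 to 16.8 and 15.2 to 24.8 CPM in MG and 50.3 to 132 and 25.2 to 65.9 CPM in sdCAMs, CTL first, and an interaction of -1.26 (SE 0.41). Phf11d, a PHD finger protein, had -1.11 (SE 0.35), and Batf2, an AP-1 family transcription factor with 1.48 to 3.08 and 1.71 to 5.71 CPM in MG, had -1.75 (SE 0.55). Adjusted p were 0.349, 0.322 and 0.3201.

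Other genes of this direction have other functions. Hlx, a homeobox transcription factor, had 24.7, 24.5, 33.9, 26.1 and 32.9 CPM in MG CTL and 41.4, 37.3, 49.5, 46.5 and 41.04 CPM in MG BLZ945. In tdT- CTL it had 48.4, 45.7, 56.8, 65.6 and 56.97 CPM and in tdT- BLZ945 44.2, 36.9, 39.1, 41.6 and 39.4 CPM. The groups did not overlap in either cell type, where MG groups did not overlap in 2.82% of all genes (1.55% with BLZ945 higher), and the interaction of -1.04 (SE 0.22) had an adjusted p of 0.103. Mtmr1, a phosphoinositide phosphatase, had 10.7 to 20.3 and 22.01 to 36.9 CPM in MG and 15.2 to 26.1 and 8.78 to 16.9 CPM in sdCAMs, CTL first, and an interaction of -1.59 (SE 0.36) with an adjusted p of 0.123. Its MG groups did not overlap and its sdCAM groups did.

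Others act in metabolism and transcription. Gfpt1, the first enzyme of hexosamine synthesis, had effects of 0.55 (SE 0.26) in MG and -0.93 (SE 0.27) in sdCAMs. Prkaa1, a catalytic subunit of the energy sensor AMPK, had 0.67 (SE 0.20) and -0.52 (SE 0.20), and the forkhead factor Foxj2 had 0.57 (SE 0.27) and -0.76 (SE 0.28). For Rgmb, Slc38a10, Snx13, Larp1, Ski, Suz12, Kctd5 and Sf1 the interaction lay between -0.87 and -0.48. Pcdh7, Dnah2 and Ptprk, like Batf2 below the expression limit for named genes, are given to complete the 22. Pcdh7 and Dnah2 had at most 3.23 CPM in any library. Ptprk, a receptor phosphatase, had 0 to 0.307 and 0 to 0.857 CPM in MG and 25.3 to 46.0 and 5.802 to 29.1 CPM in sdCAMs.

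Of the 7 genes lower in MG and higher in sdCAMs, H2-Eb1 had the largest interaction. It encodes the beta chain of an MHC class II molecule. MG CTL had 11.7, 27.7, 16.3, 13.5 and 15.97 CPM and MG BLZ945 8.93, 5.63, 7.28, 4.102 and 6.46 CPM. In tdT- CTL it had 361, 564, 298, 651 and 343 CPM and in tdT- BLZ945 1158, 605, 985, 623 and 293 CPM. The MG groups did not overlap, as in 1.27% of all genes with BLZ945 lower, the sdCAM groups did, and tdT- BLZ945 F1 and F3 were above every other library. The effects were -1.40 (SE 0.33) in MG and 0.73 (SE 0.30) in sdCAMs, and the interaction of 2.12 (SE 0.45) had an unadjusted p of 0.000111 and an adjusted p of 0.103 in edgeR.

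Med21, a subunit of the Mediator complex of transcription, had 45.3, 49.7, 41.1, 51.8 and 52.1 CPM in MG CTL and 25.5, 22.3, 31.96, 29.6 and 27.9 CPM in MG BLZ945. Values in sdCAMs were 28.3, 26.5, 29.9, 39.5 and 42.1 CPM in CTL and 47.2, 68.8, 39.7, 48.2 and 27.2 CPM in BLZ945. The MG groups did not overlap, and in sdCAMs BLZ945 F3 and M2 lay within the CTL range. Its interaction was 1.28 (SE 0.29), with an adjusted p of 0.123. Cnn2, an actin-binding calponin, had 16.1 to 32.2 and 12.2 to 18.5 CPM in MG and 17.1 to 39.9 and 22.6 to 62.7 CPM in sdCAMs, CTL first, and an interaction of 1.63 (SE 0.42) with an adjusted p of 0.176. The histone chaperone Nap1l1, the Ragulator subunit Lamtor2, the ribosomal protein Rps3a1 and Pdrg1 had interactions of 0.79, 0.73, 0.69 and 0.64. Ribosomal protein genes such as Rps3a1 have near-identical copies in the genome, so the counts of Rps3a1 are uncertain.

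Of the interferon-stimulated list most members had a higher fitted value after repopulation in MG and a lower one in sdCAMs. All 20 members were tested, and 18 had a positive effect in MG with a negative one in sdCAMs. Of all genes, 51.7% had effects of opposite sign, counted in either direction. At an unadjusted p under 0.05 the interaction was lower in 12 members and higher in 0, where 4.91% of all genes were lower. None passed after adjustment in edgeR, and in DESeq2 2 did, Ifit2 and Oas1a. The median interaction of the list was -1.06 against -0.03 over all genes, and its median effects were 0.84 in MG and -0.25 in sdCAMs. At that p 13 members were higher in MG (2.56% of all genes), and Ifit2 alone was lower in sdCAMs (6.41% of all genes). Limma voom gave 5 members with a lower interaction, the animal block 8, and the fit without both libraries of BLZ945 M1 gave 7.

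The promoters of Oas1a, Ifit3 and Ddx60 are shown because interferon acts through a sequence in them, the interferon-stimulated response element. It was searched as 2 copies of GAAA with any 2 bases between them, on both strands, in the 200 bases before the start of each gene in RefSeq (build GRCm38.p6). It was present in 7 of the 13 list members with an entry, against 2.65% of 27025 genes. Of the 12 members with a lower interaction, 8 had an entry and 5 held it (Ifit3, Ifit3b, Isg15, Oas1a and Rsad2), whereas both promoters of Ifit2 held none. Of the 22 genes higher in MG and lower in sdCAMs, 20 had an entry and Ddx60 alone held it. A match describes letters and not a bound site. Capitals mark the matches in either strand, 5′ to 3′, and overlapping matches run together.
Oas1a (chr5:120907526-120907725, minus strand): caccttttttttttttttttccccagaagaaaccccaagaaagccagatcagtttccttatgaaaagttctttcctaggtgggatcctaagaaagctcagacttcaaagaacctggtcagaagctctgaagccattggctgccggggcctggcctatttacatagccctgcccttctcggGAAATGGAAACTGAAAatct
Ifit3 (chr19:34583329-34583528, plus strand): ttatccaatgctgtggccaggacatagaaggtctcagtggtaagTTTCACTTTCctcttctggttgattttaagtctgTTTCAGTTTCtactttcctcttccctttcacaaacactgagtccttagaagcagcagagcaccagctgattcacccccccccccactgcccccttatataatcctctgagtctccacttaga
Ddx60 (chr8:61927887-61928086, plus strand): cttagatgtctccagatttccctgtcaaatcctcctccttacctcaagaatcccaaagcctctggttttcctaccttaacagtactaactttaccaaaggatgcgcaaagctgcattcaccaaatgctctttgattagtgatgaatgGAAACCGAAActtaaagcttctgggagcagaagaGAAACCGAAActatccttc

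Oas1a, which makes the oligoadenylate that activates RNase L, had the lowest interaction p of the list. It had 16.5, 25.1, 21.4, 19.2 and 12.1 CPM in MG CTL and 43.2, 22.5, 40.1, 56.99 and 33.5 CPM in MG BLZ945. The tdT- CTL libraries had 126, 81.7, 63.3, 102 and 81.2 CPM and the tdT- BLZ945 libraries 87.3, 46.5, 85.7, 74.7 and 71.7 CPM. MG BLZ945 was above all MG CTL libraries except in F2, and the sdCAM groups overlapped. Within animals, sdCAMs exceeded MG by 2.87, 1.67, 1.52, 2.35 and 2.65 in CTL and by 1.00, 1.01, 1.08, 0.38 and 1.08 in BLZ945 on the log2(CPM + 1) scale. These differences did not overlap, and the interaction was -1.37 (SE 0.35), with an adjusted p of 0.176.

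Oasl2, of the same family, had an interaction of -1.65 (SE 0.47), and Irf7, a transcription factor that amplifies the interferon response, -1.42 (SE 0.47). Irf7 had 24.04 to 40.6 CPM in MG CTL and 23.7 to 131 CPM in MG BLZ945, against 88.6 to 226 and 90.96 to 150.4 CPM in sdCAMs. For Rsad2, an antiviral enzyme, the effects were 1.56 (SE 0.48) in MG and -0.28 (SE 0.47) in sdCAMs, and for the nucleic acid sensor Ifi204 they were 0.95 (SE 0.23) and -0.06 (SE 0.22). The chemokine Cxcl10 was the only member with a positive interaction, 0.65 (SE 0.67). Samd9l, an antiviral factor outside the list, had 2.23 to 8.59 CPM in MG CTL and 7.71 to 28.5 CPM in MG BLZ945, with 31.5 to 108 and 39.1 to 64.9 CPM in sdCAMs. Its interaction was -2.46 (SE 0.57), with an adjusted p of 0.123.

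**Figure D3:**
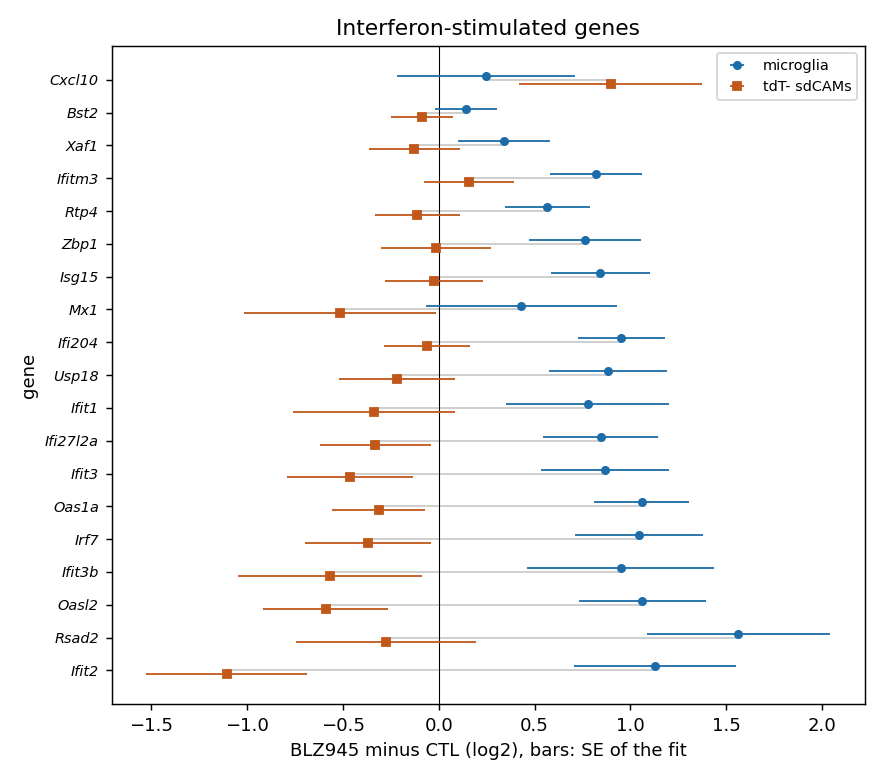
Fitted effect of BLZ945 (x axis, log2) with its SE for 19 of the 20 interferon-stimulated genes in MG (blue circles) and tdT- sdCAMs (orange squares). The MG effect lies right of the sdCAM effect in 18 of the genes shown, Cxcl10 being the exception.

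By library, the mean log2(CPM + 1) of the list was 4.78, 5.17, 5.76, 5.37 and 4.84 in MG CTL and 6.04, 4.99, 5.98, 6.55 and 5.96 in MG BLZ945. In tdT- CTL it was 7.18, 6.56, 6.41, 7.22 and 6.45 and in tdT- BLZ945 6.65, 6.63, 6.73, 6.28 and 6.44. MG BLZ945 lay above every MG CTL library except in F2, the replicate of 1 animal, and the 2 highest sdCAM values were CTL M1 and F1. Within animals, sdCAMs exceeded MG by 2.399, 1.39, 0.651, 1.86 and 1.602 in CTL and by 0.607, 1.64, 0.747, -0.272 and 0.479 in BLZ945. These differences overlapped between treatments, through the low value of CTL F3 and the high one of BLZ945 F2. Without both libraries of BLZ945 F2, 17 members had a lower interaction at an unadjusted p under 0.05. Neutrophil markers differed between the same MG libraries. The mean log2(CPM + 1) of the 11 genes of the neutrophil list was 0.6695, 0.845, 1.96, 0.911 and 0.907 in MG CTL and 0.728, 0.882, 2.15, 2.57 and 0.681 in MG BLZ945, and 0.656 to 1.097 and 0.524 to 1.19 in sdCAMs. MG CTL F3 and MG BLZ945 M1 were the highest of their groups for both lists, while MG BLZ945 F1 and M2 were high for the interferon-stimulated list and low for the neutrophil list. None of the 11 genes was at 0 in all libraries. Without MG CTL F3, MG BLZ945 F3 and MG BLZ945 M1 together, 9 interferon-stimulated members had a lower interaction at an unadjusted p under 0.05 and the adjusted test called 2 genes, Axl and Myo5a, neither of them among the 5. Whether pooling of animals takes part in the pattern was not tested.

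**Figure D4:**
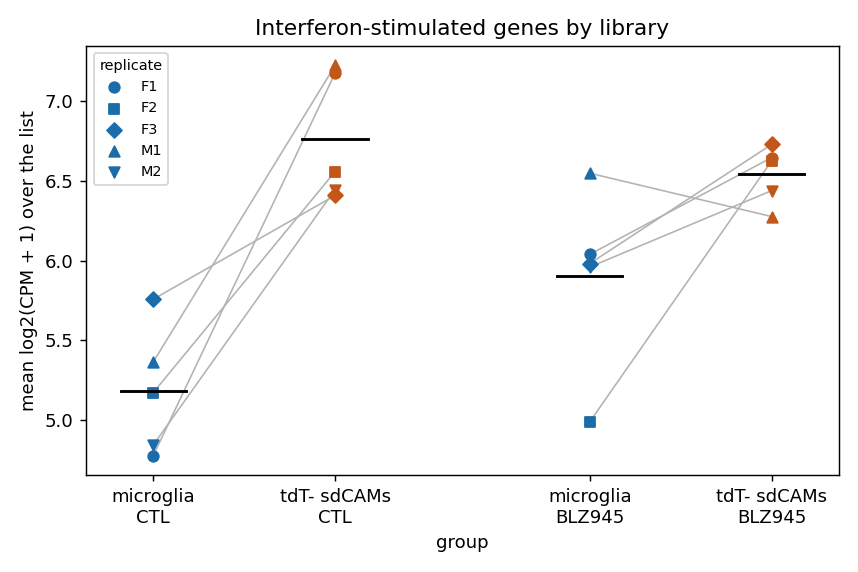
Mean log2(CPM + 1) of the 20 interferon-stimulated genes (y axis) in each library, by group (x axis). Symbols mark the replicate, grey lines join the libraries of 1 animal or pool and black bars are group means; sdCAMs lie above MG in all pairs except BLZ945 M1.

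MHC class II presentation genes had an interaction of the other sign. Of the 12 genes of the list 11 were tested, all 11 had a positive interaction, and at an unadjusted p under 0.05 it was higher in 4 (H2-Eb1, H2-Aa, H2-Ab1 and Cd74) and lower in 0, where 3.79% of all genes were higher. The median interaction was 0.72 against -0.03 over all genes, and the median effects were 0.10 in MG and 0.73 in sdCAMs. A negative effect in MG with a positive one in sdCAMs was seen in 5 of the 11, where 51.7% of all genes had opposite signs in either direction. At that p 5 members were higher in sdCAMs (5.14% of all genes) and 2, H2-Eb1 and H2-Aa, were lower in MG (2.10% of all genes). H2-Eb1, H2-Aa, H2-Ab1 and Cd74 also make up the 4 of 6 HSC-derived sdCAM markers with a higher interaction.

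Class II promoters share a set of boxes, of which the Y box is a reversed CCAAT sequence. It was searched as ATTGG on both strands in the same windows and was present in 7 of the 9 list members with an entry, against 32.7% of all 27025 genes. It was also present in 11 of 20 genes with an entry that were higher in MG and lower in sdCAMs, and in 5 of the 7 of the other direction. The promoters of H2-Eb1 and H2-Aa, the members with the largest interactions, are shown with the matches in capitals.
H2-Eb1 (chr17:34305667-34305866, plus strand): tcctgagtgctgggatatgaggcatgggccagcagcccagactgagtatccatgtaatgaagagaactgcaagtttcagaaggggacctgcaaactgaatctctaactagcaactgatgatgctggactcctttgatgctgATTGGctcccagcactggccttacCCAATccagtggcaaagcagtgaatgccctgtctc
H2-Aa (chr17:34287824-34288023, minus strand): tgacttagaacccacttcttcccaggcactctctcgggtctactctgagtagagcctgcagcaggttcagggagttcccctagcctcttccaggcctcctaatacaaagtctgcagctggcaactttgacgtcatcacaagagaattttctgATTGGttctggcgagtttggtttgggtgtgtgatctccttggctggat

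H2-Aa, the alpha chain of another class II molecule, had 14.98, 41.04, 17.4, 17.6 and 18.5 CPM in MG CTL and 14.2, 7.81, 8.65, 3.21 and 4.16 CPM in MG BLZ945. In tdT- CTL it had 464, 901, 410.3, 908 and 434 CPM and in tdT- BLZ945 1724, 899, 1404, 799.9 and 421 CPM. MG BLZ945 lay below MG CTL without overlap, and the sdCAM groups overlapped. Within animals, sdCAMs exceeded MG by 4.86, 4.42, 4.49, 5.61 and 4.48 in CTL and by 6.83, 6.67, 7.19, 7.57 and 6.35 in BLZ945 on the log2(CPM + 1) scale, with no overlap. The interaction was 2.28 (SE 0.56), with an adjusted p of 0.159 in edgeR and of 0.0265 with the animal as a block.

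H2-Ab1, the beta chain that pairs with it, had 666, 1199, 497, 1252 and 623 CPM in tdT- CTL and 2470, 969.8, 2024, 1196 and 668 CPM in tdT- BLZ945. In MG it had 31.9 to 72.6 and 23.7 to 42.3 CPM. The groups overlapped in both cell types, and the interaction was 1.43 (SE 0.45). Cd74, the invariant chain of class II molecules, had an interaction of 0.93 (SE 0.39), with -0.24 (SE 0.27) in MG and 0.69 (SE 0.27) in sdCAMs.

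Other transcripts moved with these values. The tdT- BLZ945 libraries F1 and F3 had the most H2-Eb1, H2-Aa and H2-Ab1. F1 was also the highest tdT- BLZ945 library for the monocyte, dendritic cell and T and NK cell lists, while F3 had 8.99 CPM of Ccr2, within the 5.92 to 17.9 CPM of tdT- CTL. Without the sdCAM library F1, 3 class II members had a higher interaction at an unadjusted p under 0.05. In MG, 7 of 20 sdCAM identity genes were lower after BLZ945 at that p, as were H2-Eb1 and H2-Aa. The B cell list was lower too, with 2.28 to 2.598 in MG CTL and 1.65 to 1.96 in MG BLZ945, and with 2.07 to 2.29 and 1.25 to 1.81 in sdCAMs, without overlap in either cell type. Both members tested, Cd79b and Ighm, were lower in MG at that p. Both populations were sorted as CD11b+ cells. The part of sdCAM and B cell transcripts in the MG values of H2-Eb1 and H2-Aa was not tested.

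**Figure D5:**
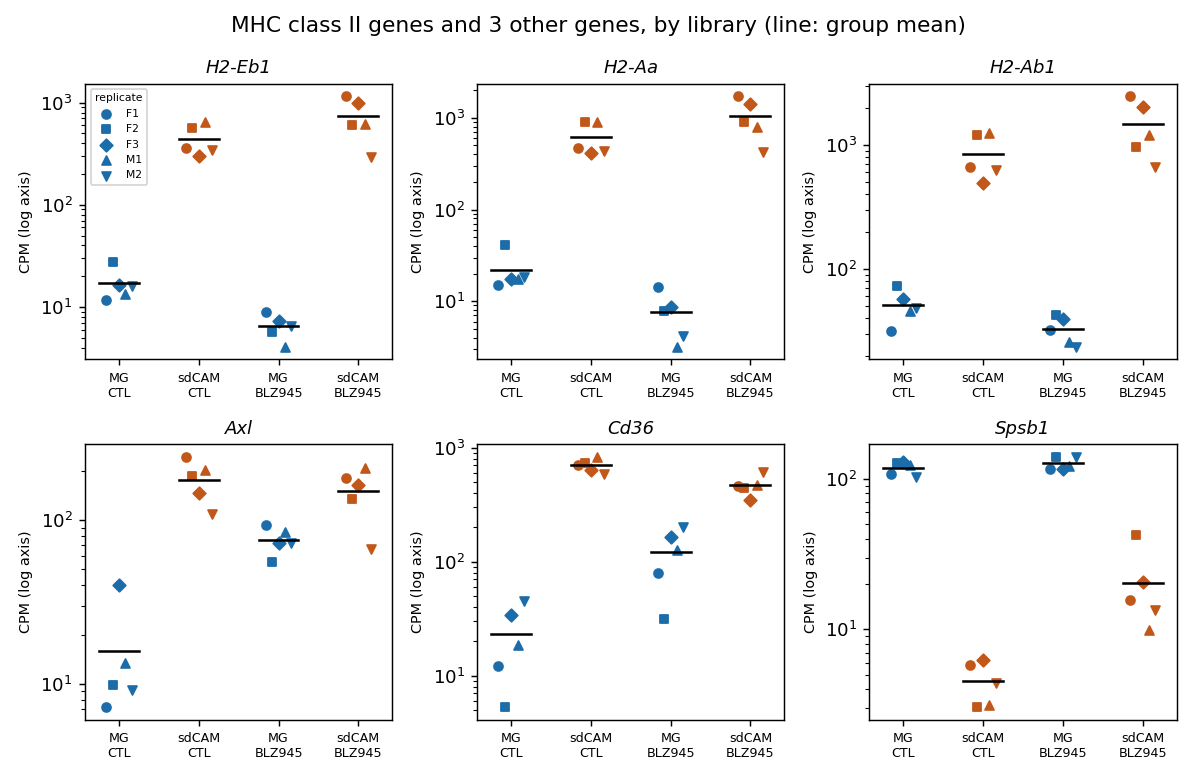
CPM by library (y axis, log scale) of H2-Eb1, H2-Aa, H2-Ab1, Axl, Cd36 and Spsb1 in MG (blue) and tdT- sdCAMs (orange), with symbols for replicates and lines for group means. H2-Eb1 and H2-Aa are lower in MG BLZ945 than in any MG CTL library, Axl is higher in every MG BLZ945 library, and Spsb1 is higher in every tdT- BLZ945 library.

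Of the 20 sdCAM identity genes, 7 had a higher interaction at an unadjusted p under 0.05 and 0 a lower one, where 3.79% of all genes were higher and 4.91% lower. All 7 were lower in MG at that p, as were 2.10% of all genes. Their levels in MG were low, and 4 genes of the list had a group at the floor. The median interaction was 0.61, with or without these 4. Mrc1, which encodes the CD206 that separates the sort gates, had 5.27, 10.2, 36.0, 10.7 and 6.07 CPM in MG CTL and 6.12, 3.28, 5.74, 4.46 and 5.78 CPM in MG BLZ945. In sdCAMs it had 2889 to 3323 CPM in CTL and 2808 to 3335 CPM in BLZ945, and the groups overlapped in both cell types. Cbr2, a carbonyl reductase, had 3.05, 0.879, 3.01, 4.97 and 2.38 CPM in MG CTL and 0, 0.672, 1.11, 0.357 and 1.28 CPM in MG BLZ945, and the lectin Clec10a had 0 to 2.72 CPM in MG CTL and 0 in all MG BLZ945 libraries. In sdCAMs these 2 genes overlapped between treatments. Of the 20 genes, 3 were lower and 1 higher in sdCAMs at that p, where 6.41% and 5.14% of all genes were. The adjusted test of the sdCAM effect called 1 of the 20 in the 20-library model (0.480% of all genes). In 3 the sdCAM groups did not overlap, with BLZ945 lower (1.22% of all genes). Cd209f, among the 7 genes lower in MG, was lower in sdCAMs too, with -0.82 (SE 0.27). With a filter of 10 or more counts in every library, which Cbr2 and Clec10a could not pass, 2 of the list had a higher interaction at that p, and without both libraries of CTL M2 the count was 4.

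In several named genes the effect passed the adjusted test in 1 cell type. Axl, a receptor kinase for apoptotic cells, had 7.21, 9.84, 40.2, 13.5 and 9.14 CPM in MG CTL and 93.8, 55.4, 72.9, 84.2 and 72.4 CPM in MG BLZ945, without overlap. It rose in MG by 2.24 (SE 0.39) on the log2 scale, with an adjusted p of 0.0226 in edgeR. In sdCAMs it had 108 to 243 CPM in CTL and 66.9 to 209 CPM in BLZ945, an effect of -0.23 (SE 0.36). The interaction of -2.47 (SE 0.53) had an adjusted p of 0.103, and Axl was the 1 gene that limma voom called.

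Cd36, a scavenger receptor for lipids and dead cells, had 12.2, 5.27, 34.3, 18.4 and 44.8 CPM in MG CTL and 78.99, 31.3, 165, 127 and 203 CPM in MG BLZ945. It rose in MG by 2.39 (SE 0.44), with an adjusted p of 0.0422, though the groups overlapped through BLZ945 F2. In sdCAMs it had 590.3 to 828 CPM in CTL and 347 to 612 CPM in BLZ945, an effect of -0.58 (SE 0.42), and the interaction was -2.97 (SE 0.61) with an adjusted p of 0.0988. The ion channel Trpv4 rose in MG by 1.41 (SE 0.25) and Sh3pxd2b, a scaffold of podosomes, by 2.33 (SE 0.34), with adjusted p of 0.0226 and 0.00551. Their interactions were -1.59 (SE 0.34) and -2.06 (SE 0.45), which did not pass after adjustment in edgeR and passed in DESeq2 (adjusted p = 0.00398 and 0.00102).

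Idh2, the mitochondrial isocitrate dehydrogenase, had 179, 185, 175, 184 and 174 CPM in MG CTL and 93.3, 117, 96.1, 119 and 79.5 CPM in MG BLZ945, without overlap. Its effect was -0.83 (SE 0.12) in MG (adjusted p = 0.00551) and -0.05 (SE 0.12) in sdCAMs, and the interaction was 0.78 (SE 0.17) with an adjusted p of 0.104.

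In sdCAMs, Spsb1, an adaptor of ubiquitin ligases, had 5.79, 3.04, 6.29, 3.13 and 4.43 CPM in CTL. It had 15.7, 42.5, 20.7, 9.94 and 13.4 CPM in BLZ945, without overlap. It rose by 2.18 (SE 0.30), with an adjusted p of 0.00158, while MG had 104 to 129 CPM in CTL and 116 to 140 CPM in BLZ945. Its interaction of 2.08 (SE 0.40) had an adjusted p of 0.0846. This was the lowest after the called genes among genes with an average log2 CPM of at least 4, predicted genes aside.

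Hes1, a transcription factor downstream of Notch, had 5.703, 11.2, 14.8, 10.4 and 6.97 CPM in tdT- CTL and 36.7, 29.7, 104, 71.8 and 32.5 CPM in tdT- BLZ945, and 30.2 to 48.8 and 52.4 to 64.9 CPM in MG. The groups did not overlap in either cell type and both effects were positive, 2.49 (SE 0.32) in sdCAMs (adjusted p = 0.000817) and 0.61 (SE 0.30) in MG. The interaction was 1.88 (SE 0.43) with an adjusted p of 0.123. In the model of sdCAMs alone the sdCAM effect of Hes1 did not pass after adjustment. Ufsp2, a protease for the modifier UFM1, rose in sdCAMs by 0.67 (SE 0.12) (adjusted p = 0.0114), and the lysosomal transporter Atp13a2 had an sdCAM effect of -0.70 (SE 0.13) (adjusted p = 0.0165). Their MG effects were -0.05 (SE 0.12) and 0.12 (SE 0.13). Neither sdCAM effect passed after adjustment in the model of sdCAMs alone.

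Other lists had members in both directions. At an unadjusted p under 0.05 the interaction was higher in 3.79% of all genes and lower in 4.91%. Of 20 activated microglia genes the interaction was higher in 2 (Itgax and Ccl6) and lower in 5 (Axl, Igf1, Gpnmb, Fabp5 and Clec7a) at that p. Itgax encodes CD11c, an integrin of dendritic cells and activated microglia, and CD11c+ cells were left out of the sort. It had 0 in all tdT- CTL libraries and 9.87, 0, 0, 0 and 0.225 CPM in tdT- BLZ945, so its sdCAM value came almost wholly from F1. Its interaction had an unadjusted p of 0.00462, and of 0.0773 without that library. Igf1, a growth factor, had 0.615 to 7.45 CPM in MG CTL and 4.46 to 7.88 CPM in MG BLZ945, against 261 to 369.6 and 175 to 247 CPM in sdCAMs. Of 19 lipid uptake and efflux genes it was higher in 2 (Abca1 and Pparg) and lower in 4, among them Cd36, Lipa and Fabp5. Of 15 homeostatic microglia genes it was higher in 1 and lower in 3. The higher one, the lectin Siglech, had 233, 245, 205, 171 and 109 CPM in tdT- CTL and 409, 662, 353, 439.9 and 187 CPM in tdT- BLZ945, with 1196 to 1914 and 1237 to 1924 CPM in MG. Its groups overlapped, through BLZ945 M2, and its interaction was 1.24 (SE 0.35) with an adjusted p of 0.257. The lower ones, Sall1, Slco2b1 and Tmem119, were lower in sdCAMs at that p.

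In the remaining lists few members differed at that p, and many shares lay near those of all genes, 3.79% higher and 4.91% lower. MHC class I presentation had 0 of 14 higher and 2 lower, Tap1 and H2-M3, chemokines 2 of 18 higher, Ccl6 and Ccl24, and 1 lower, Cxcl1, and cell cycle genes 2 of 23 higher, Pcna and Stmn1, and 3 lower, Cenpe, Rrm2 and Tpx2. NF-kB genes had 0 of 15 higher and 1 lower, the subunit Rel, with -1.36 (SE 0.49). TAM receptors and ligands had 0 of 5 higher and 2 lower, Axl and Mertk. Immediate early genes had 1 of 24 higher, Myc, complement genes 0 of 12 higher and 1 lower, C3, matrix genes 1 of 19 higher, Serpinf1, and 2 lower, Mmp2 and Tgfbi, lysosomal genes 0 of 24 higher and 1 lower, Lipa, and the Cd300 family 1 of 5 higher, Cd300a. Among markers of other cells the interaction was higher in 1 of 6 monocyte genes (Plac8), 2 of 2 erythroid genes, 1 of 4 dendritic cell genes (Itgax) and 1 of 9 mural and fibroblast genes (Vtn), and it was lower in none of them. Most counts of the erythroid genes Hba-a1 and Hbb-bt in tdT- BLZ945 were those of F2, and without that library the interaction of Hba-a1 was 0.61, where it was 4.39 with it. The 2 choroid epithelium genes tested, Ttr and Folr1, had interactions of -5.00 and -4.66 and were higher in MG at that p, and the MG BLZ945 library F3 had most of their MG counts. Without it the interaction of Ttr was 0.79. The 4 YS-derived sdCAM markers had 2 higher, Cd163 and Lyve1, and both had at most 3.51 CPM in any MG library. Cytokines (11 genes), glycolysis and hypoxia (20), heat shock chaperones (13), Fc gamma receptors (5) and CSF receptors and ligands (6) had 0 in either direction in edgeR, and no member of any list passed after adjustment in that test. In DESeq2 10 of the 317 members tested passed, 5 higher and 5 lower, Cd36, Clec10a, Cbr2, H2-Eb1, H2-Aa and Axl among them.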

How the data were processed

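The authors deposited raw gene counts of bulk RNA-seq on sorted cells. The submitters' processing notes name bcl2fastq 2.20, STAR 2.7.11a, featureCounts 2.0.6 and DESeq2 1.46.0, and the build used for these libraries is not settled by the sources. Groups were taken from the labels. Replicates were counted as separate animals or pools, as labelled, although the names of BLZ945 F2 and M1 share an animal number. The p-values of the main model measure the spread between libraries within groups. That model did not use the pairing of MG and sdCAM libraries, which only the replicate block did.

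Counts of 20 libraries were fitted with edgeR 4.0.16 (R 4.3.3; TMM scaling, filterByExpr, quasi-likelihood F-test), with 1 coefficient per group. The interaction and the effect in each cell type were contrasts of this model, with Benjamini-Hochberg adjustment over 12697 genes and a threshold of 0.05. The scripts were tested on simulated data. Levels are CPM, or log2(CPM + 1) for list means and within-animal differences. Named were all genes called, the 10 with the lowest interaction p in each direction, the 8 opposite genes with the largest interaction in each direction (average log2 CPM of at least 4, no predicted genes) and members of lists. Not every list member counted is named, and some are not reported here. The members and lists were chosen with earlier results of these data known. The labels give MG and sdCAM libraries of the same animal or pool, so the replicate block is a true pairing. The deviations of paired libraries from their group means correlated with a mean r of 0.117 in CTL and 0.0869 in BLZ945, against -0.029 and -0.0212 for other pairs.

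Alternatives were DESeq2 1.42.0, limma 3.58.1 (voom with group weights), RLE scaling, other filters, all 23 libraries, a sex term, the block and leaving out libraries or animals. Separate models for each cell type and the fits without tdT- BLZ945 F1 and F2, or without 3 MG libraries high in neutrophil markers, were chosen after seeing the data. Promoters came from RefSeq (GRCm38.p6).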

Additional observations from a re-analysis of the deposited data

Results flagged for a closer look

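Some libraries stood apart from the other 4 of their group by Dixon's test on the log2(CPM + 1) scale, which chance alone passes in about 1 of 20 groups, and 194 groups were tested. The tdT- BLZ945 F1 library had 4.16 for the monocyte list against 1.05 to 1.89, 3.47 for the dendritic cell list against 1.44 to 1.96, and 0.874 for the T and NK cell list against 0 to 0.0791. In the same group F2 was high for the mural and fibroblast list (3.01 against 1.80 to 2.01) and M2 was low for the B cell list (1.24 against 1.68 to 1.81). Among MG BLZ945 libraries, F3 was high for the choroid epithelium list (3.75 against 0.0448 to 0.743) and M1 for the T and NK cell list (0.173 against 0 to 0.0283). Among MG CTL libraries, M1 was high for the sdCAM identity list (2.86 against 2.28 to 2.42), M2 was low for the homeostatic microglia list (10.4 against 10.9 to 11), and F3 was high for the neutrophil list (1.96 against 0.67 to 0.911). H2-Aa was high in MG CTL F2 (5.39 against 4.00 to 4.29), and Atp13a2 was low there (5.67 against 5.75 to 5.77). Gm9958 was low in tdT- CTL F3 (0.378 against 2.34 to 3.05), and Lamtor2 was high in tdT- BLZ945 F2 (7.94 against 7.30 to 7.39).

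The test of the difference between the 2 cell types singled out 5 genes, with fitted log2 differences of -5.45 for Gimap9, -7.53 for Zfp493, -7.48 for Ano7, -5.23 for Adam33 and -8.12 for Gm9958. These values depend on the fit at or near 0 counts and are no bounds.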

How the results depend on the processing

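The spread was wider in sdCAMs than in MG (common biological coefficient of variation 0.663 and 0.28, pooled 0.504). Whether this takes part in the differences between models was not tested. The interaction of 64 genes, among them all with a printed interaction, was recomputed in up to 40 alternatives. Ttr alone changed sign, from -5.00 to 0.79 without MG BLZ945 F3 (-7.31 to 0.79 over the fits that leave out a library or animal). DESeq2 called 100 genes in the interaction (30 higher, 70 lower), 70 in MG and 372 in sdCAMs, and gave 45 opposite genes, 18 with MG lower. Limma voom called 1, 140 and 2 genes, with 54 opposite genes, 44 with MG higher, and 5 interferon-stimulated members. With RLE 14 genes had MG higher. Without a filter the interaction called 9 genes, 2180 at an unadjusted p under 0.05, and 70 were opposite (47 with MG higher, 23 lower). With 10 or more counts in every library it called 0 (778 at an unadjusted p under 0.05), with 17 genes in sdCAMs and 2 sdCAM identity members. All 23 libraries gave 1 gene (29 in sdCAMs), the sex term 1 and the replicate block 1. Without tdT- BLZ945 F1 and F2 together there were 40 genes, the interaction at unadjusted p under 0.05 counted 1700, with 221 in sdCAMs, and 48 opposite, 15 with MG lower. Without MG CTL F3, MG BLZ945 F3 and MG BLZ945 M1 together there were 2 genes, 23 in sdCAMs, 4 sdCAM identity members and 3 opposite genes with MG lower. Models of each cell type alone called 46 genes in MG and 0 in sdCAMs.

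Leaving out 1 library or animal in turn gave 0 to 36 genes in the interaction, 840 to 1488 at an unadjusted p under 0.05, 0 to 14 in MG and 25 to 195 in sdCAMs. Opposite genes numbered 15 to 46, with 10 to 28 MG higher and 4 to 18 MG lower. The interaction gave 23 genes without both BLZ945 F1 libraries, 12 without tdT- BLZ945 F3 or M1, 9 without M2, and 0 without MG CTL F2, MG CTL M1 or both libraries of BLZ945 F2, BLZ945 F3 or CTL M1. Interferon-stimulated members numbered 7 to 17, sdCAM identity members 4 to 8 and MHC class II members 3 to 5. Gimap9 kept its call in 24 of 30 such fits, Zfp493 in 17, Ano7 in 11, Adam33 in 8 and Gm9958 in 7. The causes were not tested.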
